A study of Rattus norvegicus with 14 samples.

Results

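The data described here are the levels of 81 genes for subunits of the oxidative phosphorylation system, of 14217 genes with a probe set of their own, in peritoneal mesotheliomas of the rat and in control peritoneal tissues. A gene was taken as a member where a probe set named it alone and where its symbol began with Ndufa, Ndufb, Ndufc, Ndufs, Ndufv, Uqcr, Cox4i, Cox5, Cox6, Cox7, Cox8 or Atp5, or was Sdha, Sdhb, Sdhc, Sdhd or Cyc1, with assembly factors left out. Each gene was read from the probe set with the highest mean log2 signal over the 14 arrays. The rule took genes by name, with no difference between samples, although it was drawn up with earlier results of these data known. Complex I had 34 members, complex II 4, complex III 8, complex IV 19 and complex V 16. Complex IV included Ndufa4 and Ndufa4l2, which carry a complex I name, and Cox6c-ps1, a transcribed pseudogene. Complex V included Atp5if1, an inhibitor. Probe sets of 7 subunits could not be used because they also named a second gene, and Cox7a2, Uqcrb and Ndufa10 were among these. All 4 subunits of complex II were measured.

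The study asked how tumors induced by multiwalled carbon nanotubes (MWCNTs) and by amosite asbestos compare by inducer and by tumor type. All 14 arrays were from male Wistar rats, 1 rat for each array, and no age was given in the labels. The 11 tumors arose after a single injection into the peritoneal cavity of amosite asbestos (3 tumors) or of MWCNT D (3 tumors), MWCNT C (3 tumors) or MWCNT B (2 tumors), each suspended in an artificial lung medium. By histology 5 tumors were sarcomatoid, 3 biphasic and 3 epithelioid. The 3 control peritoneal tissues were labelled as sham-treated. Sarcomatoid tumors occurred under every inducer, no biphasic tumor was among those of MWCNT B, and no epithelioid tumor among those of MWCNT C. Tumors and tissues were whole pieces, in which fewer cells of a type and less RNA per cell cannot be told apart.

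Oxidative phosphorylation is the process by which mitochondria turn the oxidation of nutrients into ATP. Complex I takes electrons from NADH, complex II takes them from succinate, complex III passes them to cytochrome c, and complex IV hands them to oxygen. The protons pumped on the way drive complex V, the ATP synthase. Nuclear genes, those measured here, encode most of the subunits. Several small subunits of complex IV exist as pairs of isoforms, of which one is made in skeletal muscle and heart and the other in most tissues.

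The control tissues carried a strong skeletal muscle signal, and this moved with every comparison against them. The 32 skeletal muscle markers made up 0.0254 to 0.0434% of the summed signal in tumors, against 7.29 to 7.71% in controls, and 31 of the 32 were lower in tumors. The exception was Tpm2, a tropomyosin that other contractile cells also make, with a log2 change of 3.09. Actn2, Myh4, Myh7, Myl2, Tnnc2, Mb, Pvalb, Cacna1s and Myot lay at or below a log2 signal of 5 in every tumor. Mesothelial markers were low in the controls: the 10 measured summed to 0.0115 to 0.316% of the signal in tumors, against 0.00219 to 0.00375% in controls, with 7 called higher, and Krt18, Rspo1 and Bnc1 lay at or below a log2 signal of 5 in all 3 controls. Macrophage markers were higher for 11 of 12 genes, and none of 9 adipocyte markers was called (all genes: 10.4% lower and 27.7% higher). Pancreatic acinar markers took 4.81% of the signal on the amosite replicate 1 array and 3.74% on the MWCNT D replicate 2 array, compared with 0.00428 to 0.0121% on the remaining tumor arrays and 0.00265 to 0.00324% on the control arrays. The log2 ratio of the 3′ to the 5′ control probe set of beta-actin was 0.30 to 0.60 in tumors, against -1.24 to -0.65 in controls. For hexokinase this ratio was 0.77 to 1.24 in tumors, against 1.70 to 3.91 in controls, and for GAPDH, where the groups overlapped, -0.03 to 0.18 in tumors, against 0.10 to 0.16 in controls. The part of these differences in the results below was not tested.

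Most subunits were lower in tumors than in control tissues. Of the 81 members, 51 were downregulated and 4 upregulated at an adjusted p below 0.05 and more than 2-fold (limma, Benjamini-Hochberg over all probe sets). Over all genes, 10.4% were called lower and 27.7% higher. The median log2 change of the members was -1.04, whereas that of all genes was 0.44. In either direction 55 members were called, compared with 38.1% of all genes. Without the fold limit, 73 members were lower and 4 higher, compared with 17.2% and 40.5% of all genes. The members summed to 1.15 to 1.71% of the signal of the tumor arrays, against 2.75 to 2.84% of that of the control arrays. In 71 members every tumor lay below every control, as 14.3% of all genes did, and in 2 members every tumor lay above, compared with 32.4% of all genes. The remaining 8 members overlapped between the groups.

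**Figure D1:**
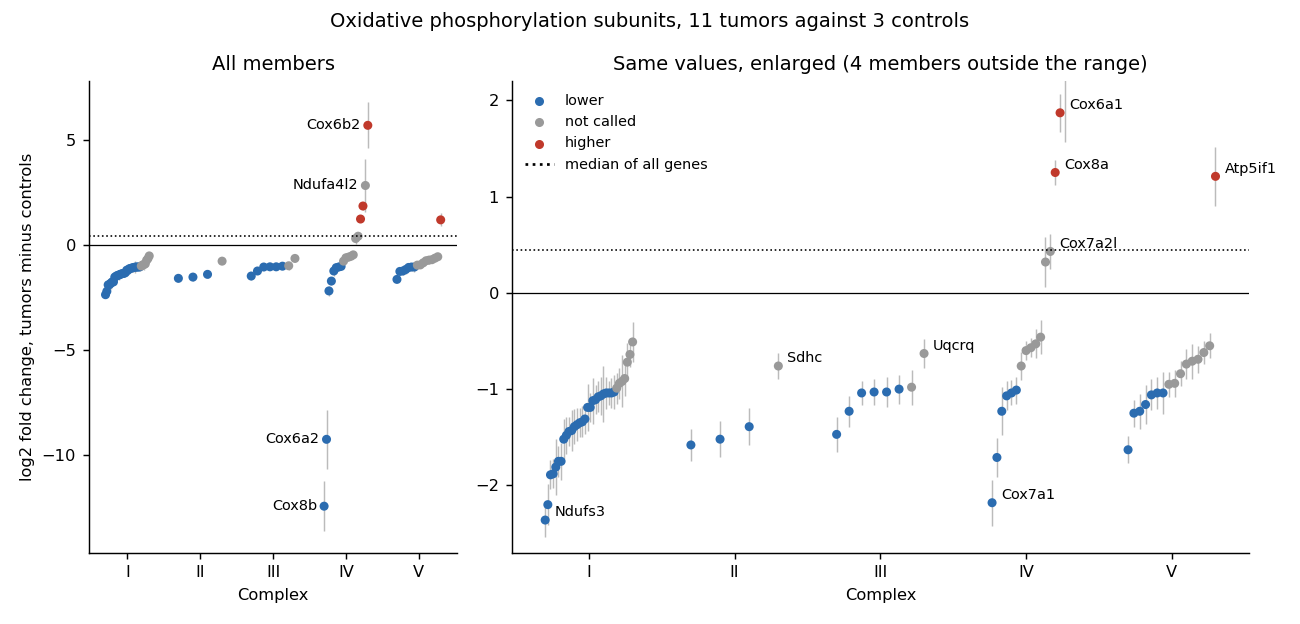
Log2 fold change of each of the 81 subunits (points, with the standard error as a bar), 11 tumors minus 3 controls, grouped by respiratory complex. The left panel shows all values and the right panel enlarges the range around 0. The median of all genes is 0.44 (dotted line), and every point of complexes I, II and III lies below 0.

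The size of the shift depended on how the arrays were scaled. The arrays' median signal was 129 to 154 in tumors and 96.9 to 104 in controls. Centring each array on its own median moved the median of all genes to -0.01, gave a member median of -1.49, and raised the count to 70 downregulated and 2 upregulated members. Quantile normalization put the median of all genes at 0.11, the member median at -0.92 and the counts at 36 and 4. The share of higher genes among all called genes was 72.7% as deposited, 51.0% after centring and 59.3% after quantile normalization.

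Most falls were modest. Of the 51 downregulated members 46 fell by less than 4-fold, and 17 were called with a log2 change no lower than -1.1. Another 22 members were lower at an adjusted p below 0.05 without reaching 2-fold, of which 6 had a log2 change below -0.9. Counts at the 2-fold limit therefore rest on small margins for many members. Just inside the limit, Uqcrc1 was 2.01-fold and Cox5b 2.02-fold lower, and just outside it Ndufb9 was 1.98-fold and Uqcrh 1.97-fold lower.

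In complex I all 34 members had negative changes, 27 were downregulated (all genes: 10.4%), and the median was -1.19. Among the 6 measured core subunits, which are shared with the bacterial enzyme and most of which carry its redox centers, 5 were downregulated, with a median of -1.75. The 28 accessory subunits had a median of -1.12, with 22 downregulated. Ndufs3, a core subunit of the arm that reduces quinone, had the largest fall of the complex. Its log2 signal was 9.73 at the lowest, 10.08 at the median and 10.62 at the highest in tumors, against 12.39, 12.40 and 12.39 in controls. The groups lay far apart, with a log2 change of -2.36 ± 0.18 (SE), or 5.12-fold (adjusted p = 1.0e-07).

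Ndufs7, which holds the last iron-sulfur cluster before the quinone, ranged over 10.19, 10.65 and 10.88 in tumors (lowest, median, highest), against 12.52, 12.54 and 12.43 in controls, a log2 change of -1.89 (adjusted p = 1.7e-07). Ndufs8, its partner in the same arm, had a smaller change of -1.34. In the NADH-oxidizing module, Ndufs1 ranged over 10.31, 10.66 and 11.06 in tumors, against 12.43, 12.40 and 12.44 in controls. Ndufs1 and Ndufv2, both of which carry iron-sulfur clusters, changed by -1.75 each. Ndufv1, the flavin-bearing subunit that binds NADH in this module, changed by -0.94 and was not called. The members of one module thus differed in the size of their falls.

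Of the accessory subunits, Ndufab1, the mitochondrial acyl carrier protein, ranged over 11.03, 11.42 and 11.86 in tumors, against 13.23, 13.23 and 13.28 in controls (log2 change -1.88, adjusted p = 2.0e-07). Ndufb8, a subunit of the membrane arm, ranged over 8.30, 9.15 and 10.25 in tumors, against 11.20, 10.96 and 11.11 in controls (log2 change -1.81, adjusted p = 0.00013). Both genes were lower in every tumor than in every control, as 14.3% of all genes were. Ndufs4, a late-joining accessory subunit, had the fold closest to 1 in the complex. It ranged over 9.99, 10.68 and 11.24 in tumors, against 11.17, 11.26 and 11.17 in controls, and 10 of 11 tumors lay below the lowest control. Its change of -0.51 did not pass (adjusted p = 0.057). It passed the adjusted p, under 2-fold, at -0.96 after centring of the arrays (adjusted p = 0.0031) and at -0.55 after quantile normalization (adjusted p = 0.037).

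Ndufv3, an accessory subunit of the NADH-oxidizing module, was the member whose probe sets disagreed. The set used, which was the brighter, ranged over 9.31, 9.77 and 10.42 in tumors, against 12.09, 12.04 and 12.07 in controls, with a log2 change of -2.20 ± 0.21 (SE, adjusted p = 1.2e-06). The other set ranged over 7.48 to 8.18 in tumors, against 7.10, 6.98 and 7.19 in controls, with a change of 0.83 (adjusted p = 0.00042). One set was thus lower and the other higher in all 11 tumors than in all controls. Which transcripts the sets read is not annotated in the sources used here. The mean of both sets gave a change of -0.68, which ended the call. Of the other 7 members with more than 1 probe set, Atp5if1, Ndufa9, Sdhd and Uqcrc2 had further sets that were called in the same direction. The second sets of Atp5me, Atp5po and Ndufa7, all dimmer, were not called.

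In complexes II and III every measured subunit was lower at an adjusted p below 0.05, as 17.2% of all genes were. In complex II, which is also an enzyme of the citrate cycle, Sdhb, the iron-sulfur subunit, had the smallest adjusted p. It ranged over 10.50, 11.03 and 11.49 in tumors, against 12.56, 12.58 and 12.65 in controls, a log2 change of -1.58 ± 0.17 (SE, adjusted p = 3.6e-06). Sdha, the flavoprotein, changed by -1.52, and Sdhd, a membrane anchor, by -1.39. Sdhc, the other anchor, ranged over 11.22, 11.48 and 11.81 in tumors, against 12.22, 12.30 and 12.36 in controls. Its change of -0.76 passed the adjusted p (0.00049) without reaching 2-fold.

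In complex III, 6 of 8 members were downregulated (all genes: 10.4%), with changes between -1.47 and -0.63 over all 8. Cyc1, the cytochrome c1 subunit, changed by -1.47, and Uqcrfs1, the Rieske iron-sulfur protein, by -1.03. Uqcrc2, a core structural subunit, ranged over 11.56, 11.75 and 11.99 in tumors, against 12.76, 12.78 and 12.79 in controls. Its log2 change was -1.04 ± 0.12 (SE, adjusted p = 6.1e-06), and quantile normalization put it at -0.90, under the 2-fold limit. Uqcrq, a small subunit at the membrane, ranged over 11.32, 11.93 and 12.20 in tumors, against 12.54, 12.49 and 12.52 in controls, and changed by -0.63 (adjusted p = 0.0031). All 8 members lay lower in every tumor than in every control, as 14.3% of all genes did.

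Complex V, the ATP synthase, had 7 downregulated and 1 upregulated member of 16 (all genes: 10.4% and 27.7%), with a median of -0.94. Atp5me, subunit e of the membrane part, had the smallest adjusted p among these. It ranged over 9.70, 10.20 and 10.46 in tumors, against 11.78, 11.74 and 11.81 in controls, a log2 change of -1.63 ± 0.14 (SE, adjusted p = 4.7e-07). The 5 subunits of the catalytic F1 part were all lower at the adjusted p, from -1.25 for Atp5f1e to -0.62 for the catalytic subunit Atp5f1b, and 3 of them reached 2-fold. Atp5pd, a stalk subunit, ranged over 12.06, 12.35 and 12.52 in tumors, against 12.84, 12.81 and 12.88 in controls, and changed by -0.55 (adjusted p = 0.002).

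Atp5if1, the inhibitor that keeps ATP synthase from running backward and hydrolyzing ATP, changed in the opposite direction to the enzyme. It ranged over 9.83, 11.12 and 11.70 in tumors, against 9.86, 9.81 and 9.82 in controls. Only the amosite replicate 1 tumor lay at the level of the controls. The log2 change was 1.21 ± 0.31 (SE, adjusted p = 0.0048), and its other probe sets gave 1.14 and 1.58. After centring of the arrays the change was 0.76 and no longer passed (adjusted p = 0.082).

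Complex IV, cytochrome c oxidase, held 3 of the 4 upregulated members. It had 8 downregulated and 3 upregulated members of 19 (all genes: 10.4% and 27.7%), with log2 changes from -12.45 to 5.72. Of its 7 tissue-restricted isoforms, 4 were downregulated and 1 upregulated. Of the other 12 members, 4 were downregulated and 2 upregulated, with a median of -0.59. Among these, Cox5a, a subunit of the matrix face, changed by -1.71 and Cox5b, a zinc-binding subunit, by -1.01.

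The muscle and heart isoforms Cox8b and Cox6a2 had the largest falls of all members. Cox8b, the muscle form of subunit VIII, ranged over 3.50, 4.21 and 11.28 in tumors, against 17.35, 17.22 and 17.25 in controls. The highest tumor value was that of MWCNT D replicate 2, and the other 10 tumors lay between 3.50 and 5.14. On this array 6 of the 32 skeletal muscle markers were the highest of the tumors, and the markers' mean log2 signal was 5.15, against 5.22 to 5.54 in the other tumors. The log2 change of Cox8b was -12.45 ± 1.20 (SE, adjusted p = 1.3e-06).

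Cox6a2, the muscle form of subunit VIa, ranged over 0.01, 4.01 and 7.58 in tumors, against 13.29, 13.21 and 13.13 in controls. Its log2 change was -9.26 ± 1.41 (SE, adjusted p = 8.1e-05). Cox7a1, the muscle form of subunit VIIa, ranged over 4.28, 4.78 and 5.36 in tumors, against 7.11, 6.70 and 7.10 in controls, a change of -2.18 (adjusted p = 4.4e-06). The deposited values hold no detection calls, and the size of these changes depends on how low values are treated. With all values under 5 set to 5, Cox8b changed by -11.69, Cox6a2 by -7.62 and Cox7a1 by -1.89, and all 3 stayed called.

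The ubiquitous partners of 2 of these isoforms were upregulated. Cox6a1, the form of subunit VIa in most tissues, ranged over 11.95, 12.42 and 12.93 in tumors, against 10.39, 10.61 and 10.63 in controls. Its log2 change was 1.87 ± 0.20 (SE), or 3.66-fold (adjusted p = 3.0e-06). Cox8a, the form of subunit VIII in most tissues, ranged over 12.32, 12.65 and 12.89 in tumors, against 11.24, 11.41 and 11.46 in controls. Its log2 change was 1.25 ± 0.13 (SE), or 2.37-fold (adjusted p = 2.1e-06). In both genes every tumor lay above every control, as 32.4% of all genes did. After centring of the arrays Cox6a1 still rose, by 1.42, and Cox8a stood at 0.80, under the 2-fold limit (adjusted p = 0.00023).

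**Figure D2:**
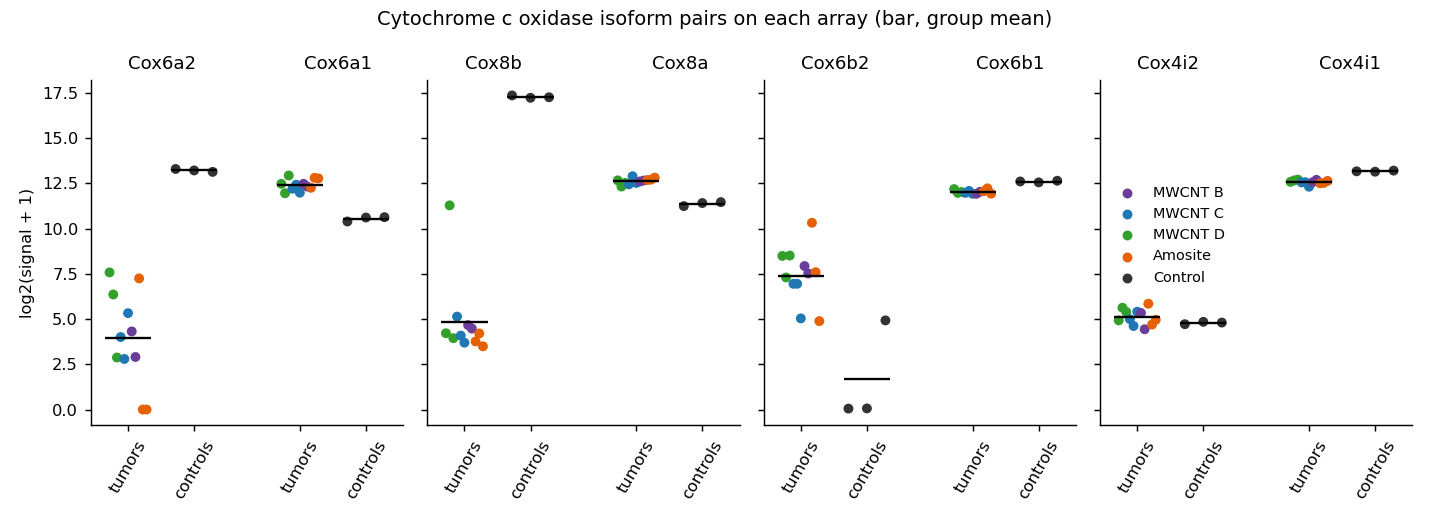
Log2(signal + 1) of 4 pairs of cytochrome c oxidase isoforms on each array (points, colored by inducer), with the tissue-restricted form to the left of its ubiquitous partner in each panel and bars at the group means. Cox6a2 (13.13 to 13.29) and Cox8b (17.22 to 17.35) in controls lie above every tumor, while Cox6a1 and Cox8a are higher in tumors. The highest tumor values are 7.58 for Cox6a2 (MWCNT D replicate 1) and 11.28 for Cox8b (MWCNT D replicate 2).

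The balance of isoforms was tested as the shift, between tumors and controls, of the log2 difference within each of 4 pairs, with an exact two-sided permutation test over the arrays. The smallest p that this test could give was 0.0027. The difference Cox6a2 minus Cox6a1 shifted by -11.13 and Cox8b minus Cox8a by -13.70 (exact p = 0.0027 and adjusted p = 0.0037 over the 4 pairs, for each). In these 2 pairs the restricted form lay below every control in all tumors and its partner above. The small p therefore follows from that separation and adds nothing to it. The shift of Cox6b2 minus Cox6b1 was 6.29 (exact p = 0.0027, adjusted p = 0.0037), and its size rested on Cox6b2 signals near 0 in 2 of the 3 control tissues: it was 2.99 with values under 5 set to 5 and 3.65 with a pseudocount of 16 (adjusted exact p = 0.0027 for each). The shift of Cox4i2 minus Cox4i1 was 0.92 (exact p = 0.0082, adjusted p = 0.0082). Cox4i2 lay at or below a log2 signal of 5 in all 3 control tissues. By itself it changed by 0.32 (limma adjusted p = 0.31) and Cox4i1 by -0.60. After quantile normalization the last pair shifted by 0.41 and did not pass (adjusted exact permutation p = 0.16). For Cox7a1 the partner Cox7a2 had no probe set of its own, so that no shift could be computed.

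The other pairs had partners that fell little. Cox6b1, the common form of subunit VIb, ranged over 11.92, 12.02 and 12.22 in tumors, against 12.60, 12.55 and 12.64 in controls, and changed by -0.57. Cox6b2, its partner known from testis, ranged over 4.89, 7.52 and 10.32 in tumors, against 0.06, 0.07 and 4.93 in controls. The lowest tumor, amosite replicate 3, lay just under the highest control. The log2 change of Cox6b2 was 5.72 ± 1.09 (SE, adjusted p = 0.00051), and with values under 5 set to 5 it was 2.42 (adjusted p = 0.037).

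Cox4i1, the common form of subunit IV, ranged over 12.31, 12.56 and 12.70 in tumors, against 13.16, 13.14 and 13.20 in controls, a change of -0.60 (adjusted p = 0.00025). Cox4i2, its partner known from lung and from low oxygen, had the fold closest to 1 of the complex. It ranged over 4.44, 5.0 and 5.85 in tumors, against 4.72, 4.85 and 4.81 in controls, and its change of 0.32 (adjusted p = 0.31) turned to -0.12 after centring and -0.05 after quantile normalization. The 11 tumors thus surrounded the 3 controls for this gene.

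Ndufa4l2 was the most variable member among the tumors with a log2 mean above 8 and was singled out after its values were seen. It is known as a target of the hypoxia-inducible factor and resembles Ndufa4, a subunit of complex IV. Its log2 signal ranged over 4.66, 9.44 and 12.07 in tumors, against 6.09, 6.05 and 5.31 in controls. The highest tumors were amosite replicate 3 at 12.07, MWCNT C replicate 3 at 10.82 and MWCNT B replicate 1 at 10.50, and MWCNT D replicate 2 at 4.66 lay below all controls. The change of 2.85 ± 1.28 (SE) did not pass (adjusted p = 0.073), and it passed at 3.25 without MWCNT D replicate 2 (adjusted p = 0.022) and at 3.16 without MWCNT C replicate 2 (adjusted p = 0.039). Ndufa4 ranged over 11.18, 11.90 and 12.55 in tumors, against 13.07, 13.08 and 13.09 in controls, a change of -1.23 (adjusted p = 0.00095).

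The spread between tumors was widest for Cox6a2 (SD 2.58), Ndufa4l2 (2.32), Cox8b (2.19) and Cox6b2 (1.53), all of complex IV. The SD of Cox6a2 included values down to 0.01. With values under 5 set to 5, the SD of Cox6a2 minus Cox6a1 over tumors fell from 2.80 to 1.13. That of Cox8b rested on MWCNT D replicate 2 (11.28), with the other tumors at 3.50 to 5.14. The 74 members with a mean log2 signal of at least 8 had a median standard deviation of 0.254 over the 11 tumors. It was 0.378 for the 7299 genes at or above the same limit. Signal was not matched above this limit, so whether members varied less than equally bright genes was not tested. Among these members, the highest standard deviation after that of Ndufa4l2 was 0.551 for Atp5if1. Over the 74 members other than the tissue-restricted isoforms, the median difference from the control mean was -0.72 to -1.23 on the 11 tumor arrays, against -0.02 to 0.03 on the control arrays. The highest tumor, MWCNT C replicate 2 at -0.72, had the highest level of the tumors in 40 of the 74 members. MWCNT D replicate 2 was the lowest in 20 members and MWCNT D replicate 3 in 18.

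**Figure D3:**
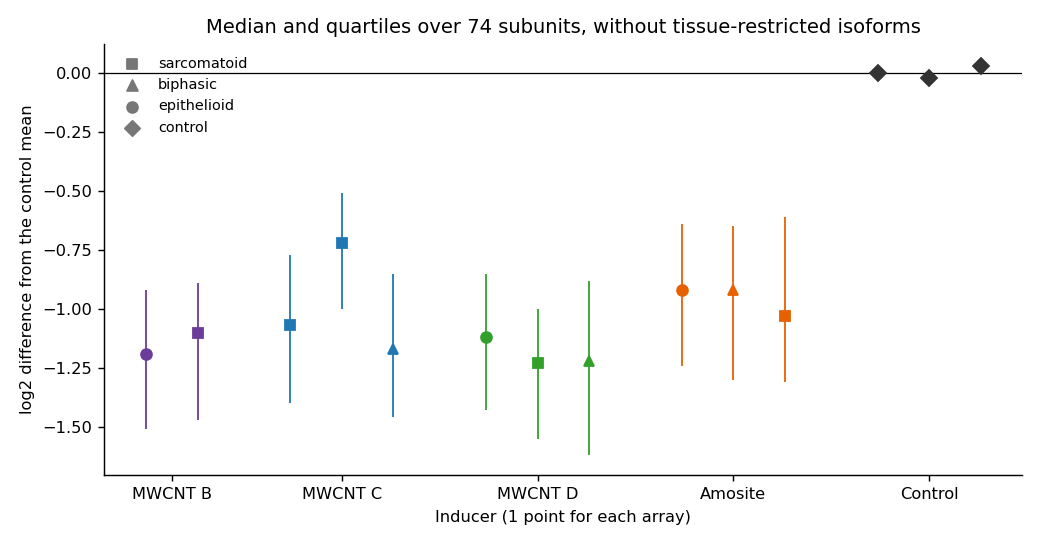
Median over 74 subunits of the log2 difference from the control mean on each array (points, with bars from the lower to the upper quartile), by inducer, with the marker shape giving the tumor type. All 11 tumors lie between -0.72 and -1.23, below the 3 controls, with MWCNT C replicate 2 the nearest to them.

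Grouped by inducer, the tumors of every group had more downregulated than upregulated members. Each of the following comparisons used the same 3 controls. Amosite tumors had 37 downregulated and 3 upregulated members (all genes: 9.4% and 25.5%). MWCNT D tumors had 57 and 3 (all genes: 10.3% and 25.3%), MWCNT C tumors 42 and 4 (all genes: 10.1% and 24.9%) and MWCNT B tumors 54 and 4 (all genes: 9.71% and 23.1%). The mean of the array medians over the 74 members was -0.96 ± 0.06 for amosite (SD, n = 3), -1.19 ± 0.06 for MWCNT D (SD, n = 3), -0.98 ± 0.24 for MWCNT C (SD, n = 3) and -1.15 ± 0.07 for MWCNT B (SD, n = 2). The change of Ndufs3 was -2.04 under amosite, -2.51 under MWCNT D, -2.39 under MWCNT C and -2.54 under MWCNT B. Cox6a1, Cox8a and Cox6b2 were upregulated in all of these groups, but with values under 5 set to 5 Cox6b2 kept its call in MWCNT D tumors (3.10, adjusted p = 0.049) and lost it in amosite (2.63, adjusted p = 0.088), MWCNT C (1.31, adjusted p = 0.4) and MWCNT B tumors (2.72, adjusted p = 0.12). Atp5if1 was called in MWCNT B (1.43) and MWCNT C tumors (1.69) and not in MWCNT D (0.88, adjusted p = 0.052) or amosite tumors (0.90, adjusted p = 0.049, under 2-fold).

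A direct comparison of the 8 MWCNT tumors with the 3 amosite tumors called none of the 81 members, and none of all 14217 genes, in limma. At an unadjusted p below 0.05 there were 2 members, a cut that some members pass by chance alone and that was not counted over all genes. Ndufa13, a complex I subunit also called GRIM-19, averaged 11.02 ± 0.26 in MWCNT tumors (SD, n = 8) and 11.82 ± 0.63 in amosite tumors (SD, n = 3), with amosite replicate 3 at 12.53, above all controls. The difference was -0.79 ± 0.25 (SE, limma adjusted p = 1). Ndufs3 averaged 9.92 ± 0.19 in MWCNT tumors and 10.35 ± 0.27 in amosite tumors, and Ndufb4, a membrane-arm subunit, 12.07 ± 0.30 in MWCNT tumors and 12.49 ± 0.12 in amosite tumors, both with limma adjusted p = 1.

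Grouped by tumor type, the counts were 46 downregulated and 4 upregulated members in sarcomatoid tumors (11.1% and 26.6% of all genes), 46 and 4 in biphasic tumors (10.1% and 27.8%), and 49 and 3 in epithelioid tumors (9.95% and 27.3%), each against the same controls. With values under 5 set to 5, Cox6b2 was called in epithelioid tumors (3.91, adjusted p = 0.006) and not in sarcomatoid (1.74, adjusted p = 0.11) or biphasic tumors (2.05, adjusted p = 0.1). The mean of the array medians was -1.03 ± 0.19 (SD, n = 5) in sarcomatoid, -1.1 ± 0.16 (SD, n = 3) in biphasic and -1.08 ± 0.14 (SD, n = 3) in epithelioid tumors. With the deposited scaling, the level of the subunits as a whole thus differed between types by less than the spread within them. After centring of the arrays, the array medians were -1.65 to -1.08 in sarcomatoid, -1.63 to -1.41 in biphasic and -1.73 to -1.54 in epithelioid tumors. Whether types differ in this level thus depends on the scaling, and it was not tested.

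Between tumor types no member was called by limma. Among all genes, 0.858% were called between sarcomatoid and epithelioid, 0.345% between sarcomatoid and biphasic and 0% between biphasic and epithelioid tumors. At an unadjusted p below 0.05 there were 3, 1 and 2 members in these comparisons. Chance alone puts some members under this cut, and the share of all genes under it was not counted. The smallest adjusted p was that of Ndufv3, which averaged 9.58 ± 0.17 in sarcomatoid (SD, n = 5), 10.32 ± 0.13 in biphasic (SD, n = 3) and 9.92 ± 0.14 in epithelioid tumors (SD, n = 3). The 5 sarcomatoid tumors lay between 9.31 and 9.77 and the 3 biphasic tumors between 10.18 and 10.42, without overlap. The difference of -0.75 ± 0.14 (SE) was under 2-fold and missed the threshold (limma adjusted p = 0.056, and 0.017 to 0.57 over the alternatives). It rested on the brighter probe set: the other set overlapped, at 7.81 to 8.18 in sarcomatoid tumors and 7.48, 8.09 and 8.01 in biphasic tumors, and the mean of both sets differed by -0.29 (limma adjusted p = 0.57). Atp5if1 averaged 11.31 ± 0.38 in sarcomatoid and 10.51 ± 0.65 in epithelioid tumors, a difference of 0.81 (limma adjusted p = 0.26).

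The other members with the smallest p between types were Cox6a2, Atp5mg and Cox7a2l. Cox6a2 averaged 3.22 ± 2.29 in sarcomatoid, 2.74 ± 2.66 in biphasic and 6.38 ± 1.79 in epithelioid tumors, so that the sarcomatoid tumors differed from the epithelioid by -3.16 (limma adjusted p = 0.34). All these values were far below the controls. Atp5mg, subunit g of ATP synthase, averaged 11.89 ± 0.43 in sarcomatoid, 11.45 ± 0.28 in biphasic and 11.93 ± 0.11 in epithelioid tumors. Cox7a2l, which joins complexes III and IV into supercomplexes, averaged 12.11 ± 0.19 in sarcomatoid and 11.75 ± 0.21 in biphasic tumors (limma adjusted p = 0.61). Against controls, Cox7a2l ranged over 11.40, 12.01 and 12.38 in tumors, against 11.53, 11.51 and 11.52, a change of 0.43 that did not pass (adjusted p = 0.059) and that was -0.02 after centring.

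**Figure D4:**
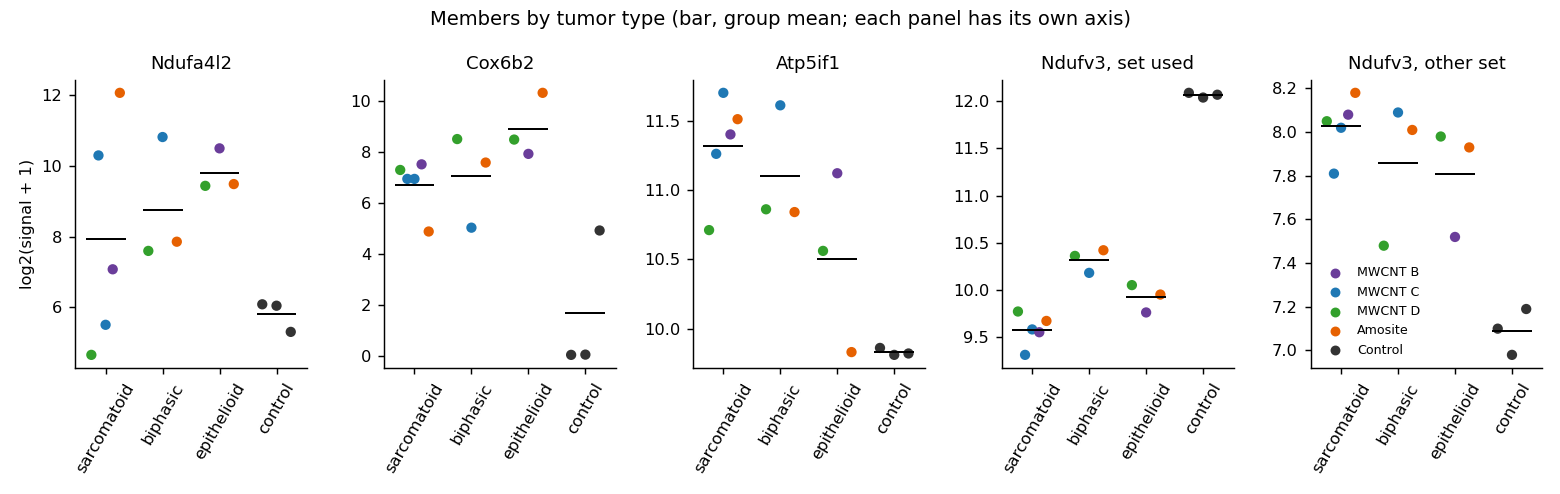
Log2(signal + 1) of Ndufa4l2, Cox6b2, Atp5if1 and both probe sets of Ndufv3 on each array (points, colored by inducer), by tumor type, with bars at the group means and a separate axis for each panel. The Ndufv3 set used runs from 9.31 to 10.42 in tumors, against 12.04 to 12.09 in controls, and the other set runs from 7.48 to 8.18 in tumors, against 6.98 to 7.19 in controls.

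Genes of related mitochondrial lists were counted beside the subunits. Among all genes, 10.4% were downregulated and 27.7% upregulated in this comparison. Of 15 citrate cycle genes 12 were downregulated and none upregulated, with a median of -1.48. Idh3a, the catalytic subunit of the NAD-dependent isocitrate dehydrogenase, ranged over 8.64, 9.03 and 9.78 in tumors, against 11.99, 11.86 and 11.78 in controls, a log2 change of -2.72. Idh3b (-1.92), Pdhx (-2.04), a structural component of pyruvate dehydrogenase, and Sucla2 (-1.91), a subunit of succinyl-CoA ligase, had the next largest falls. Of 42 assembly factors 19 were downregulated and none upregulated (median -0.90), led by Cox10 (-2.35), which makes heme for complex IV, Sdhaf3 (-2.15), Foxred1 (-2.13) and Ecsit (-2.02), the last 2 of complex I. Of 73 genes of the mitochondrial ribosome, which translates the subunits encoded in mitochondrial DNA, 14 were downregulated and none upregulated, with a median of -0.58. Mrps15 had the largest fall among these, 4.01-fold, followed by Mrps28 (3.52-fold), Mrpl50 (3.02-fold) and Mrpl38 (2.98-fold). The median of all genes in the same comparison was 0.44.

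In fatty acid oxidation the muscle form of an enzyme fell while another form rose. Of 14 genes of fatty acid oxidation 8 were downregulated and 1 upregulated (all genes: 10.4% and 27.7%), with a median of -1.1. Cpt1b, the muscle form of the carnitine palmitoyltransferase that admits fatty acids to mitochondria, ranged over 5.50, 6.18 and 7.41 in tumors, against 11.87, 11.74 and 11.99 in controls (log2 change -5.57). Cpt1a, the liver form, ranged over 10.28, 10.68 and 12.43 in tumors, against 7.44, 7.74 and 7.71 in controls (log2 change 3.33). Acadm, a dehydrogenase of medium chains, changed by -2.44 and Cpt2 by -1.72. Of 12 electron carriers and genes of adenine nucleotide exchange 5 were downregulated and 1 upregulated. Ckmt2, the sarcomeric mitochondrial creatine kinase, ranged over 2.96, 3.92 and 4.23 in tumors, against 14.74, 14.84 and 14.95 in controls (log2 change -11.07). Slc25a5, the widely expressed adenine nucleotide translocator, ranged over 12.12, 12.52 and 12.84 in tumors, against 9.83, 10.26 and 10.18 in controls (log2 change 2.44). Slc25a4, the muscle and heart translocator, was 1.99-fold lower and not called (adjusted p = 0.016), and Ckmt1, the other mitochondrial creatine kinase, had a change of 0.11 (adjusted p = 0.95); both were named after their values were seen. Etfdh, which feeds electrons from fatty acid oxidation to ubiquinone, changed by -1.93 and Vdac1, an outer membrane channel, by -1.26.

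Of 19 regulators of mitochondrial biogenesis, 7 were downregulated and 2 upregulated (all genes: 10.4% and 27.7%), with a median of -0.55. Perm1, a muscle regulator of this program, ranged over 4.70, 5.93 and 6.54 in tumors, against 11.92, 11.77 and 11.78 in controls (log2 change -6.10). Esrrg, an estrogen-related receptor, changed by -5.05, Ppargc1a, the coactivator PGC-1alpha, by -3.31 and Sirt3, a mitochondrial deacetylase, by -1.69. The 2 upregulated genes, which were outside the 4 largest changes and were added after their values were seen, were Pprc1, a coactivator related to Ppargc1a, at 1.34 and Nrf1, a transcription factor of many subunit genes, at 1.09. After centring they stood at 0.90 and 0.65, under 2-fold.

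**Figure D5:**
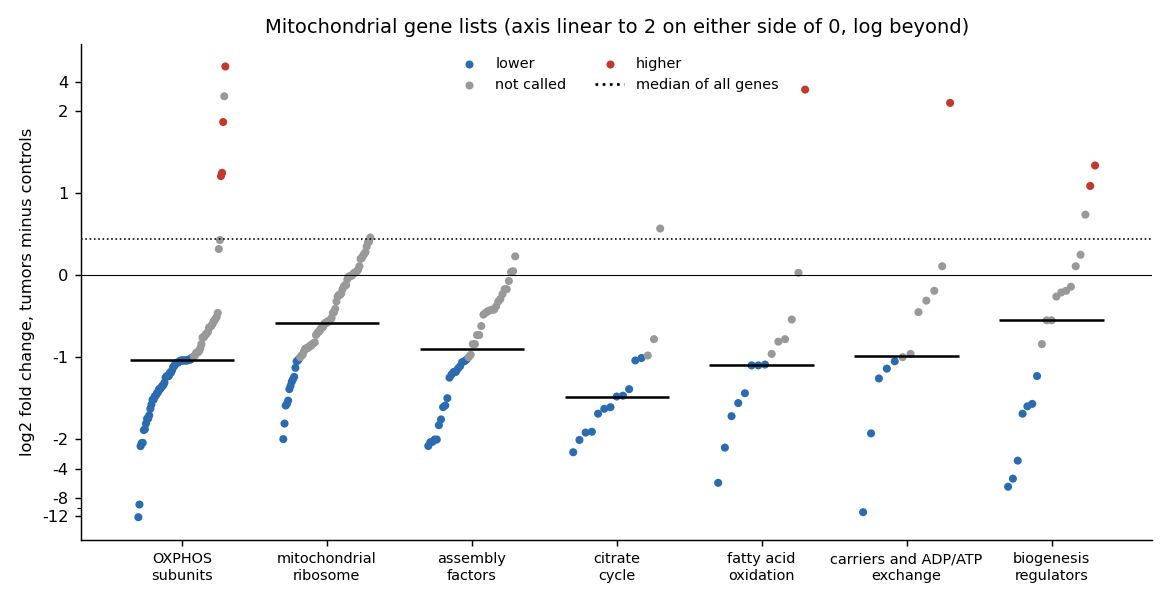
Log2 fold change of each gene (points), tumors minus controls, for the 81 subunits and 6 related mitochondrial lists, with solid bars at the list medians and a dotted line at the median of all genes (0.44). The axis is linear to 2 on either side of 0 and logarithmic beyond. The list medians run from -1.48 (citrate cycle) to -0.55 (biogenesis regulators).

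The promoters of the members were read for motifs of factors known to act on such genes. RefSeq windows (build GRCr8) were found for 72 of the 81 members, and the 250 bases upstream of the start of each were searched on both strands. The motif of NRF1 (GCGCA and GCGC with 1 base of any kind between them) was found in 10 of 72 members (13.9%), compared with 4.17% of the 27457 genes with a window. The motif CCGGAAG of GABPA was found in 19 of 72 (26.4%), compared with 7.74%, and the motif AAGGTCA of the estrogen-related receptors in 6 of 72 (8.33%), compared with 3.77%. The motif of MEF2, a muscle factor (CTA and TAG with 4 bases of any kind between them), was found in 2 of 72 (2.78%), compared with 3.43%. These were Cox6a2 and Cox5b, both downregulated, as were 51 of the 81 members. A match is a description of the letters and not a measured site.

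The upstream windows of Cox6a2 and Cox8b, which had the largest falls, of Cox8a, a ubiquitous partner that rose, and of Ndufv3, whose probe sets disagreed, are given 5′ to 3′ with motif matches in capitals. The Cox6a2 window (chr1:192219717-192219966, minus strand) holds the MEF2 letters from position -50, counted from the start. The Cox8b window (chr1:205408274-205408523, minus strand) holds none of the 4 motifs. The Cox8a window (chr1:213833624-213833873, minus strand) holds the GABPA letters on the opposite strand from positions -57 and -19. The Ndufv3 window (chr20:9613536-9613785, plus strand) holds the NRF1 letters from position -39.
Cox6a2: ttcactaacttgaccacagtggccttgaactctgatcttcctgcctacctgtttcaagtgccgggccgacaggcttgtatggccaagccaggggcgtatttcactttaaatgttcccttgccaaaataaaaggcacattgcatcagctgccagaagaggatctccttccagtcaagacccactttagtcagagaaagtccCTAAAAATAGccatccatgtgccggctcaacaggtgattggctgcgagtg
Cox8b: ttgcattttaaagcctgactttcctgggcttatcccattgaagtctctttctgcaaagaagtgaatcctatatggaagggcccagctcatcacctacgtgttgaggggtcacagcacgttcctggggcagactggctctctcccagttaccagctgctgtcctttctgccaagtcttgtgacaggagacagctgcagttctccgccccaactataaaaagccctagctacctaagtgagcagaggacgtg
Cox8a: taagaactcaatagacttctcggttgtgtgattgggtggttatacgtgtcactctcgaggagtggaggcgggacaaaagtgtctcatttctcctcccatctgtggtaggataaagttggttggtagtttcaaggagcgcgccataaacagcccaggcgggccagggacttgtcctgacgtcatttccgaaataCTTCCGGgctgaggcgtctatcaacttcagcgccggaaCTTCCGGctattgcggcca
Ndufv3: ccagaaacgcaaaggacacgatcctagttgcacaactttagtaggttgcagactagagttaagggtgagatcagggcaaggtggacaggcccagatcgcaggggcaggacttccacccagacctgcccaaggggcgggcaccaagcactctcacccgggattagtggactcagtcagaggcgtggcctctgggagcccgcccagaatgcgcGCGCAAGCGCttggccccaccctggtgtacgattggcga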

How the data were processed

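Total RNA of 11 tumors and 3 control peritoneal tissues was labeled with a 3′IVT kit and hybridized to Affymetrix GeneChip arrays of the rat genome, 1 for each rat. Normalization by the authors used PLIER (Transcriptome Analysis Console), and the deposited values are linear intensities of 31099 probe sets, without detection calls. The 57 control probe sets were removed, and the others (31042) were fitted as log2(signal + 1) with limma 3.58.1 in R 4.3.3. Separate fits covered all tumors and controls, the groups by inducer, the groups by tumor type, and MWCNT and amosite tumors. Benjamini-Hochberg adjustment ran over all probe sets. Calls needed an adjusted p under 0.05 and a change over 2-fold, the filter of the study's methods. Genes were named through the array annotation, in which 20826 probe sets had 1 symbol. The number of arrays limits the precision, and p-values measure the spread between rats. In the limma fits that held controls, tumors and controls shared a variance for each probe set. The median SD of the members was 0.267 over the tumors and 0.0365 over the controls. Isoform shifts were tested with exact permutations. Scripts were tested on simulated data. The members and gene lists were chosen with earlier results of these data known. Named members were the 10 largest falls, every called rise, both members of each isoform pair, for each complex the ubiquitous called member with the smallest adjusted p and the uncalled member with the fold closest to 1, the 3 members with the smallest p between tumor groups, and up to 4 genes of each list. Alternatives covered scaling, low values, moderation, thresholds, probe sets, covariates and left-out arrays. The control animals are called untreated in the study's methods and sham-treated in the labels.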

Additional observations from a re-analysis of the deposited data

Results flagged for a closer look

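Each named member was checked for a single array standing apart among the 5 sarcomatoid tumors and among the 8 MWCNT tumors (Dixon's test at the 95% level), and chance flags about 1 in 20 such groups. Over 29 members and 58 such groups, 8 flags were raised, with the same Cox8b value flagged in both kinds of group. Sarcomatoid MWCNT tumors belong to both kinds, so that the groups are not independent. Cox8b stood at 11.28 in MWCNT D replicate 2, compared with 3.50 to 5.14 in the other sarcomatoid tumors and 3.70 to 5.14 in the other MWCNT tumors. Without this tumor and amosite replicate 1, Cox8b changed by -13.06 between tumors and controls. Cox6b2 stood at 4.89 in amosite replicate 3, compared with 6.95 to 7.52 in the other sarcomatoid tumors, and at 5.04 in MWCNT C replicate 3, compared with 6.95 to 8.51 in the other MWCNT tumors. Among the MWCNT tumors, Ndufb8 stood at 10.25 in MWCNT C replicate 2, compared with 8.82 to 9.50 in the others, and Cox4i1 at 12.31 in MWCNT C replicate 3, compared with 12.55 to 12.70. Uqcrq stood at 11.32 in MWCNT D replicate 2, compared with 11.73 to 12.05, and Atp5me at 9.70 in MWCNT D replicate 3, compared with 10.15 to 10.46. No named member had one inducer group or tumor type wholly above the control mean and another wholly below it.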

How the results depend on the processing

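Every named member that was downregulated stayed lower under the alternatives run, and the counts of calls followed the scaling. Between tumors and controls the downregulated members numbered 36 to 70 over all alternatives and 48 to 53 when single arrays were left out, with 4 to 5 upregulated. Centring the arrays gave 2 upregulated members in all tumors, 2 in MWCNT B and 2 in biphasic tumors, and 66 downregulated members in MWCNT C, 66 in amosite and 71 in biphasic tumors. An adjusted p below 0.001 gave 27 downregulated members in MWCNT B and 24 in amosite tumors, and 2 upregulated members in MWCNT B, in MWCNT C, in sarcomatoid and in biphasic tumors. Leaving out single arrays gave 2 to 4 upregulated members in MWCNT B tumors, with 2 without MWCNT B replicate 2. Among single members, Cox4i2 turned to -0.05 after quantile normalization and -0.12 after centring, and Cox7a2l to -0.02 after centring. The isoform pair Cox4i2 and Cox4i1 fell to a shift of 0.41 after quantile normalization (exact permutation, adjusted p = 0.16). Without MWCNT D replicate 3, Ndufa13 (-0.98) and Atp5mg (-0.98) were under 2-fold. The causes were not tested.

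Deviations of same-numbered arrays of different groups correlated at 0.0265 on average, over 0.1 in 6 of 26 pairs. For arrays with different numbers the average was -0.0131, with 8 of 52 pairs over 0.1. Whether replicate numbers pair the arrays was not tested. With the number as a block, 50 members were downregulated and 5 upregulated, Ndufa4l2 being the fifth. No call between tumor groups appeared under any alternative.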
